A study of Homo sapiens with 27 samples.

Results

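The genes described here are 34 genes of mitochondrial carbon entry and oxidation: enzymes of the tricarboxylic acid (TCA) cycle, the pyruvate dehydrogenase complex with its kinases and phosphatases, the mitochondrial pyruvate carrier, PC and PCK2, which make and use oxaloacetate, and the malic enzymes. They were listed by name by what the enzymes do, with earlier results of these data known, and 34 of 34 symbols were present among the 27115 genes listed for each library. The RNA-seq libraries came from 3 human diffuse large B-cell lymphoma cell lines, Karpas422, OCI-Ly1 and HBL1, which the study assigned to the OXPHOS, GCB and ABC subtypes of the disease. Each line carried a scrambled control hairpin (shCTRL) or a hairpin against SIRT3 (shSIRT3-1 or shSIRT3-2), the mitochondrial NAD-dependent protein deacylase, delivered from the lentiviral vector pLKO.1 with puromycin resistance and a yellow fluorescent protein. RNA was taken on day 8, with 3 libraries in each of 9 groups and 27 libraries in all. The shCTRL cells were thus also infected, and no library of uninfected cells was compared here. The study describes the knockdown as made in replicates in each line, and no further account of how the 3 libraries of a group were separated was used here, so the p-values measure the spread between these libraries.

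In the TCA cycle, acetyl-CoA joins oxaloacetate to form citrate, and the ring of dehydrogenases that follows returns oxaloacetate while passing electrons to NADH and FADH2. Pyruvate enters the mitochondrion through the MPC1-MPC2 carrier and is oxidized by pyruvate dehydrogenase, an enzyme that PDK kinases turn off and PDP phosphatases turn on. PC refills oxaloacetate from pyruvate, while PCK2 and the malic enzymes draw oxaloacetate and malate out of the cycle toward phosphoenolpyruvate and pyruvate. SIRT3 removes acetyl groups from many of these proteins, a layer that RNA does not show.

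Each library had between 28694398 and 53405456 reads assigned to genes (median 45669254). Levels are given as CPM, the usual counts of a gene scaled to the total reads of its library, with no division by gene length. Fold changes are on the scale of log2(CPM + 0.1), and a gene "passed" when its limma p-value, adjusted over all genes tested by the Benjamini-Hochberg method, was below 0.05. The B-cell markers MS4A1, CD79A, CD79B and PAX5 were each at 1 CPM or more in every library. Their sum was 1276 to 2057 CPM in the 9 shCTRL libraries, 1472 to 2053 CPM with shSIRT3-1 and 886 to 1517 CPM with shSIRT3-2, so the groups overlapped over the 3 lines. With shSIRT3-2 it lay below the controls in Karpas422 (886 to 1268 against 1336 to 1701 CPM) and in HBL1 (1452 to 1517 against 1673 to 2057 CPM), and in OCI-Ly1 it overlapped them. The sum with shSIRT3-1 lay above the controls in OCI-Ly1 (1495 to 1718 against 1276 to 1376 CPM) and overlapped them in Karpas422 and HBL1. The T-cell list of 5 genes summed to between 18.6 and 43.5 CPM in Karpas422, nearly all of it CD3G (17.6 to 41.4 CPM), and to at most 2.82 CPM in the other lines. The myeloid list summed to at most 1.26 CPM and the epithelial list to at most 7.43 CPM in any library. The fibroblast list summed to between 104 and 423 CPM in Karpas422, where DCN alone of its 4 genes was above 1 CPM, and between 1.81 and 62.6 CPM in HBL1, where COL1A2 was at 12.6 to 15.2 CPM with shCTRL, 1.72 to 4.92 CPM with shSIRT3-1 and 36.8 to 62.0 CPM with shSIRT3-2. COL1A1 and COL3A1 were below 1 CPM in all 27 libraries. The part of these marker levels in the results was not tested.

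SIRT3 (chr11:215030-236931, minus strand, hg19) was measured first, since it checks the labels. In Karpas422 it stood at 9.99, 9.14 and 10.2 CPM with shCTRL, at 2.44, 2.79 and 2.57 CPM with shSIRT3-1 and at 6.24, 5.32 and 4.41 CPM with shSIRT3-2. In OCI-Ly1 the levels were 10.7, 13.8 and 9.98 CPM, then 2.23, 1.06 and 1.62 CPM, then 6.17, 4.06 and 6.03 CPM in the same order. In HBL1 they were 13.5, 14.2 and 16.4 CPM, then 2.13, 2.39 and 2.00 CPM, then 2.84, 3.12 and 3.82 CPM. Every knockdown library lay below every shCTRL library of its line. Over the 3 lines SIRT3 fell by 2.45 ± 0.17 on the log2 scale with shSIRT3-1 (SE, n = 9 against 9, limma adjusted p = 3.8e-10) and by 1.37 ± 0.17 with shSIRT3-2 (adjusted p = 2.2e-06). The hairpins differed in depth of knockdown by 1.08 ± 0.17 (adjusted p = 4.6e-05), and the knockdown differed between lines (interaction, adjusted p = 0.0029).

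The first comparison asks which of these genes changed after SIRT3 knockdown when the 3 lines are fitted jointly, with the line as a term of the model. Of 34 genes, 31 passed the filter on low values (at least 1 CPM in at least 3 libraries), and ME1, ME3 and PDK4 did not. With shSIRT3-1, 9 of 31 genes fell and 2 rose, against 22.3% of all 13076 genes tested that fell and 15.6% that rose. PCK2 and ME2 were the 2 genes changed by more than 1.5-fold, where 13% of all genes were. With shSIRT3-2, 3 of 31 genes fell (background 21.7%) and 0 rose (background 16.3%), and PCK2 alone was past 1.5-fold (background 13.5%). No further gene rose with shSIRT3-2 at an unadjusted p below 0.05 in limma, and edgeR's quasi-likelihood test also gave 0 that rose. The share of members called with shSIRT3-1 was thus near that of all genes, and with shSIRT3-2 it was below it. The median change of the tested members was -0.10 with shSIRT3-1 and -0.01 with shSIRT3-2 (all genes, -0.05 and -0.03). Under quantile normalization the genes of the whole table split into 2338 that fell and 2900 that rose with shSIRT3-1, in place of 2922 and 2039, and into 2173 and 2694 with shSIRT3-2, in place of 2842 and 2135. The members then split 8 to 4 and 4 to 0.

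**Figure D1:**
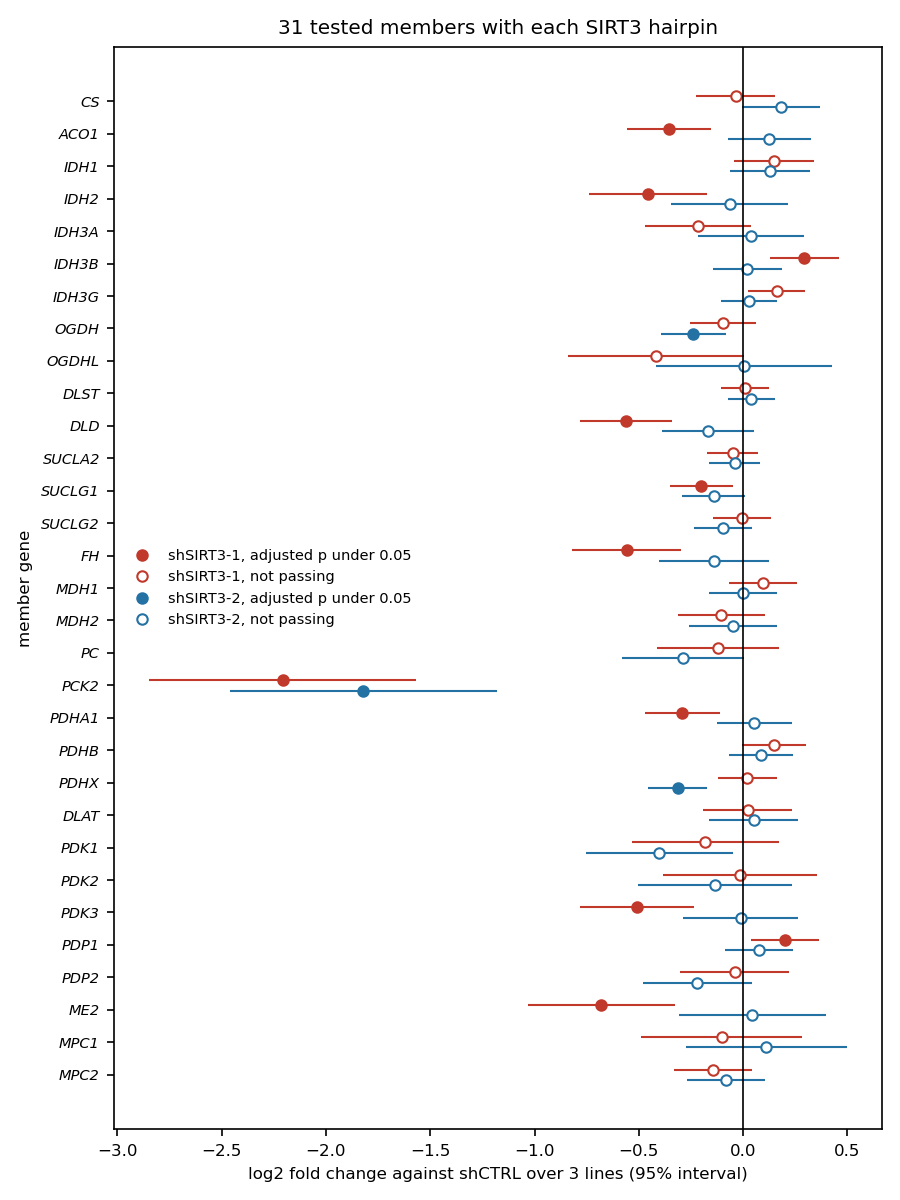
Change of the 31 tested genes with shSIRT3-1 (red) and shSIRT3-2 (blue) against shCTRL over 3 lines, as log2 fold change of log2(CPM + 0.1) on the horizontal axis, with 95% intervals as lines and filled points where the adjusted p was below 0.05. PCK2 lies far to the left with both hairpins, at -2.21 and -1.82, while ME2, FH and DLD lie left of 0 with shSIRT3-1 and have intervals that cover 0 with shSIRT3-2.

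PCK2, mitochondrial phosphoenolpyruvate carboxykinase, converts oxaloacetate to phosphoenolpyruvate and was the gene of the list with the largest change. The gene lies at chr14:24563262-24579807 on the plus strand (hg19). In Karpas422 it stood at 309, 252 and 250 CPM with shCTRL, at 81.5, 88.8 and 68.1 CPM with shSIRT3-1 and at 67.9, 74.8 and 71.7 CPM with shSIRT3-2. In HBL1 the levels were 190, 194 and 165 CPM, then 20.4, 22.6 and 10.0 CPM, then 31.7, 30.7 and 39.5 CPM. In these lines no knockdown library came near a control. In OCI-Ly1 the controls themselves were far apart, at 21.1, 153 and 16.8 CPM, beside 15.3, 12.2 and 15.4 CPM with shSIRT3-1 and 18.8, 15.7 and 17.9 CPM with shSIRT3-2. There replicate 2 of shCTRL was high on its own, the shSIRT3-1 libraries lay below the controls, and the shSIRT3-2 libraries overlapped them.

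Over the 3 lines PCK2 fell by 2.21 ± 0.31 on the log2 scale with shSIRT3-1 (4.62-fold, limma adjusted p = 6.5e-06) and by 1.82 ± 0.31 with shSIRT3-2 (3.53-fold, adjusted p = 7.4e-05), and it was below the mean of its line's controls in 18 of 18 knockdown libraries. Within Karpas422 it fell by 1.76 ± 0.12 and 1.91 ± 0.12 (adjusted p = 9.4e-05 and 3.8e-05). Within HBL1 it fell by 3.44 ± 0.27 and 2.43 ± 0.27 (adjusted p = 8.2e-05 and 0.00041). In OCI-Ly1 the estimates were -1.41 ± 0.65 and -1.12 ± 0.65 and passed with neither hairpin (adjusted p = 0.20 and 0.28). Without replicate 2 of the OCI-Ly1 controls these became -0.41 and -0.12 (adjusted p = 0.16 and 0.67). The difference between lines in the response of PCK2 had an adjusted p of 0.084 with all libraries and 4.5e-06 without that library. The calls over 3 lines held without it, at -2.001 and -1.61 (adjusted p = 1.1e-05 and 0.00014). The same control library was also the highest of its group for the transaminase genes GPT2 (39.4, 146 and 51.5 CPM) and GOT1 (20.3, 32.9 and 13.5 CPM). Fits without it were among the alternatives run for the genes of the list, and results for GPT2 and GOT1 without it are not given here.

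**Figure D2:**
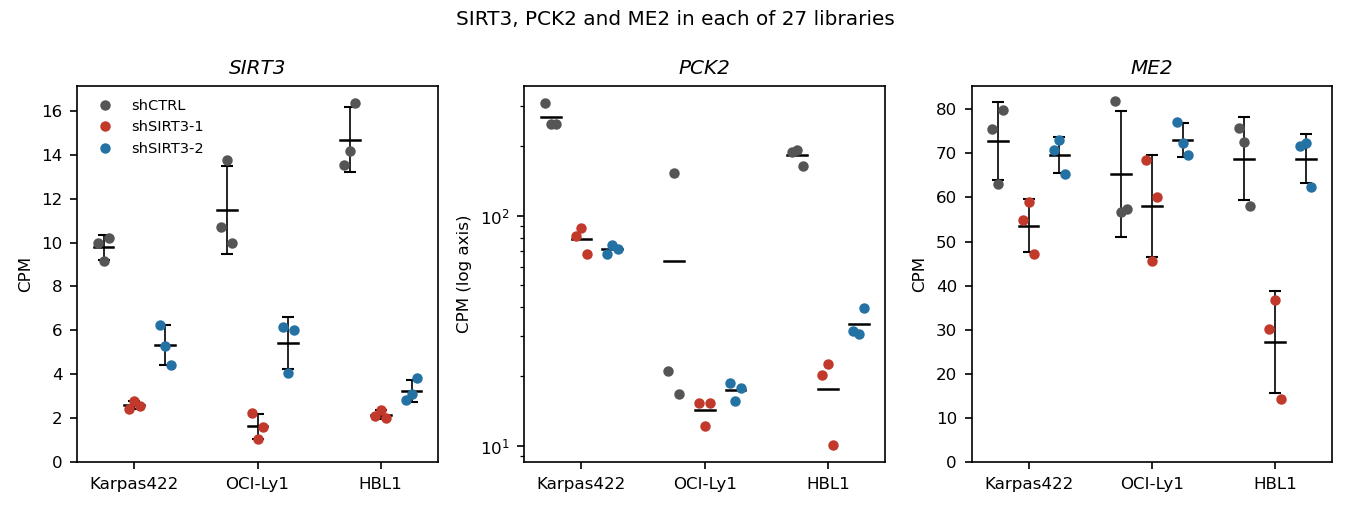
SIRT3, PCK2 and ME2 in CPM in each of the 27 libraries (points, 3 per group), with group means as bars and, on the linear panels, SD as whiskers. The PCK2 axis is logarithmic, and replicate 2 of the OCI-Ly1 shCTRL group stands alone at 153 CPM, while ME2 is lowest in the 3 HBL1 shSIRT3-1 libraries, at 14.4 to 36.9 CPM.

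In the fit over 3 lines PCK2 alone of the list fell with both hairpins, and ME2 fell with shSIRT3-1 only. The sequences upstream of their starts are printed. Both are the 250 bases before the RefSeq start on the plus strand of GRCh38.p14, a later build than that of the counts, at chr14:24094061-24094310 and chr18:50878868-50879117. Capitals mark GGGCGG (the GC box) and CCAAT, on either strand, with overlapping matches run together.
PCK2: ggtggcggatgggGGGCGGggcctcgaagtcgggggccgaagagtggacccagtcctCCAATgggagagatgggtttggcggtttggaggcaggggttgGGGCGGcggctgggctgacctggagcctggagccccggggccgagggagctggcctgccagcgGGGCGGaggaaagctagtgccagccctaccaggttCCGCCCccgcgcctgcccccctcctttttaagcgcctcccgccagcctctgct
ME2: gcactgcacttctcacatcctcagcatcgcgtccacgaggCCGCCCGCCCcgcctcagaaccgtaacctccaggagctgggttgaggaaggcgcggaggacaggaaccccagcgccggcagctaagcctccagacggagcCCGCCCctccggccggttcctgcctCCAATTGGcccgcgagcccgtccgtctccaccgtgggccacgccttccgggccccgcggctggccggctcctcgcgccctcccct
The PCK2 window held 4 matches to GGGCGG and 1 to CCAAT, and the ME2 window held 3 and 2. Of 35116 promoter windows of this length in the RefSeq table, 42.6% held GGGCGG and 32% held CCAAT. Among the genes of the list, 32 of 34 had an entry, with 46 windows, of which 30 held GGGCGG and 24 held CCAAT. Some genes have more than 1 window, so the windows are not independent. TGATGNAA, a short sequence from the C/EBP-ATF response element, was in 3.14% of all windows and TGACGTCA, the cAMP response element, in 1.65%. Neither was in any of the 46 windows, which says only that these letters are not in the 250 bases before an annotated start.

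The malic enzymes turn malate into pyruvate, ME1 in the cytosol and ME2 and ME3 in mitochondria, and in these cells ME2 was the member that was expressed. ME1 reached at most 0.18 CPM and ME3 at most 0.91 CPM in any library, too low for a test. ME2 lies at chr18:48405450-48480627 on the plus strand (hg19). In HBL1 it stood at 75.7, 72.4 and 58.0 CPM with shCTRL, at 30.2, 36.9 and 14.4 CPM with shSIRT3-1 and at 71.6, 72.2 and 62.3 CPM with shSIRT3-2. All 3 shSIRT3-1 libraries were below all controls, and the shSIRT3-2 libraries lay within the range of the controls. In Karpas422 the levels were 75.5, 62.9 and 79.8 CPM with shCTRL, 54.8, 58.9 and 47.2 CPM with shSIRT3-1 and 70.6, 73.0 and 65.2 CPM with shSIRT3-2, the same pattern at a smaller size. In OCI-Ly1 they were 81.8, 56.7 and 57.4 CPM, then 68.4, 45.6 and 60.2 CPM, then 77.0, 72.3 and 69.5 CPM, and the groups overlapped.

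Over the 3 lines ME2 fell by 0.68 ± 0.17 with shSIRT3-1 (1.6-fold, limma adjusted p = 0.0029), below the control mean in 8 of 9 libraries. With shSIRT3-2 it stood at 0.04 with a 95% interval of -0.31 to 0.39 (adjusted p = 0.87). The hairpins differed by 0.72 ± 0.17 (adjusted p = 0.0024), and the response differed between lines (interaction, adjusted p = 0.014). The decrease with shSIRT3-1 was 1.43 ± 0.30 in HBL1 (adjusted p = 0.0060) and 0.44 ± 0.11 in Karpas422 (adjusted p = 0.016), and in OCI-Ly1 the estimate was -0.17 ± 0.17 (adjusted p = 0.56). The Karpas422 call missed the threshold without replicate 1 or 3 of shCTRL or replicate 3 of shSIRT3-1 (adjusted p = 0.051 to 0.055), and the call over 3 lines held in every fit with a library or a line left out. Without HBL1 the interaction had an adjusted p of 0.59.

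From citrate to 2-oxoglutarate, CS condenses acetyl-CoA with oxaloacetate, ACO1 is the cytosolic aconitase and iron-regulatory protein, and the IDH enzymes decarboxylate isocitrate. Of these 7 genes, IDH2 and ACO1 fell and IDH3B rose with shSIRT3-1, and none passed with shSIRT3-2. No gene of this group passed 1.5-fold over the 3 lines.

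IDH3B, a subunit of the NAD-linked isocitrate dehydrogenase of the cycle (chr20:2639041-2644865, minus strand, hg19), stood in HBL1 at 44.5, 40.3 and 29.0 CPM with shCTRL, at 60.2, 58.1 and 58.0 CPM with shSIRT3-1 and at 46.0, 42.8 and 42.6 CPM with shSIRT3-2. All shSIRT3-1 libraries of HBL1 were above the controls. In Karpas422 it stood at 49.98 to 53.8 CPM with shCTRL and 53.8 to 58.0 CPM with shSIRT3-1, and in OCI-Ly1 at 46.1 to 57.7 and 55.7 to 56.7 CPM. Over the 3 lines IDH3B rose by 0.29 ± 0.08 with shSIRT3-1 (limma adjusted p = 0.0055, higher in 9 of 9 libraries), and within HBL1 by 0.65 ± 0.15 (adjusted p = 0.0081). Without HBL1 the change was 0.11 (adjusted p = 0.18). Its partner IDH3G rose in HBL1 with shSIRT3-1 by 0.43 ± 0.09 (adjusted p = 0.0047), from 19.0 to 21.9 CPM up to 27.5 to 27.7 CPM, and IDH3A, the catalytic subunit, stood at -0.48 there (adjusted p = 0.099, and 0.028 with libraries of the same replicate number as a block). Of the IDH3A transcript, 63.9% of bases overlap exons of ACSBG1 on the other strand, and the library kit does not mark strand, so reads of the pair cannot be told apart.

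IDH2, the mitochondrial NADP-linked isocitrate dehydrogenase, fell by 0.46 ± 0.14 over the 3 lines with shSIRT3-1 (limma adjusted p = 0.011). The decrease was 0.73 ± 0.20 in HBL1 (adjusted p = 0.019), where 18.2, 18.4 and 14.8 CPM with shCTRL stood beside 10.7, 13.3 and 7.65 CPM with shSIRT3-1. That call missed the threshold without replicate 1 or 2 of shCTRL (adjusted p = 0.067 and 0.073). Without HBL1 the estimate over lines was -0.32 (adjusted p = 0.16). ACO1 fell by 0.36 ± 0.10 (adjusted p = 0.0054) and was below the control mean in 9 of 9 shSIRT3-1 libraries, but its groups overlapped in Karpas422 and OCI-Ly1. CS, which carries the entry step, was at -0.04 with shSIRT3-1 and 0.18 with shSIRT3-2, and passed with neither (adjusted p = 0.78 and 0.12). IDH1, the cytosolic enzyme, rose by 0.40 ± 0.10 in OCI-Ly1 with shSIRT3-1 (31.8 to 38.1 CPM against 42.5 to 45.8 CPM, adjusted p = 0.042), a call lost in 12 of 20 alternative fits.

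From 2-oxoglutarate to succinate, OGDH and its brain-type relative OGDHL form the first component of the 2-oxoglutarate dehydrogenase complex, DLST the second and DLD the third, and the succinyl-CoA ligase is built from SUCLG1 with SUCLA2 or SUCLG2. DLD and SUCLG1 fell with shSIRT3-1 and OGDH with shSIRT3-2, and 4 of the 7 genes passed with neither hairpin over the 3 lines.

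DLD, the lipoamide dehydrogenase that the pyruvate, 2-oxoglutarate and branched-chain complexes share (chr7:107531607-107572175, plus strand, hg19), stood in Karpas422 at 95.7, 85.9 and 79.6 CPM with shCTRL, 60.7, 56.7 and 51.4 CPM with shSIRT3-1 and 65.4, 66.9 and 59.9 CPM with shSIRT3-2. Both knockdown groups were below the controls there. In HBL1 the levels were 84.2, 85.8 and 59.7 CPM, then 58.4, 58.9 and 35.9 CPM, then 83.7, 79.5 and 71.6 CPM, with replicate 3 lowest in each group. Over the 3 lines DLD fell by 0.56 ± 0.11 with shSIRT3-1 (limma adjusted p = 0.00021, lower in 9 of 9 libraries), and the estimate with shSIRT3-2 was -0.17 (adjusted p = 0.22). The difference between hairpins was 0.39 ± 0.11 (adjusted p = 0.0068). Within lines DLD fell in Karpas422 with shSIRT3-1 (-0.63, adjusted p = 0.0015) and with shSIRT3-2 (-0.44, adjusted p = 0.0085). The call in HBL1 (-0.60, adjusted p = 0.0498) was lost in 14 of 20 alternative fits, and without replicate 3 of shSIRT3-1 the value was -0.36 (adjusted p = 0.080).

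OGDH (chr7:44646171-44748665, plus strand, hg19) was changed in OCI-Ly1, where its level was highest: 174, 146 and 157 CPM with shCTRL, 137, 116 and 129 CPM with shSIRT3-1 and 120, 104 and 96.0 CPM with shSIRT3-2. Both knockdown groups lay below the controls. OGDH fell there by 0.58 ± 0.12 with shSIRT3-2 (limma adjusted p = 0.021), and the estimate with shSIRT3-1 was -0.32 (adjusted p = 0.12, and 0.047 with the replicate block). In Karpas422 the 9 libraries spanned 58.7 to 70.5 CPM and in HBL1 24.4 to 32.8 CPM, with overlapping groups. Over the 3 lines OGDH fell by 0.24 ± 0.08 with shSIRT3-2 (adjusted p = 0.016), but without OCI-Ly1 the value was -0.07 (adjusted p = 0.50). The OCI-Ly1 call was lost without replicate 3 of shCTRL or without replicate 2 or 3 of shSIRT3-2 (adjusted p = 0.061 to 0.081).

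OGDHL (chr10:50942687-50970425, minus strand, hg19) was changed in HBL1, where it stood at 13.8, 13.5 and 16.3 CPM with shCTRL, 5.35, 6.14 and 4.74 CPM with shSIRT3-1 and 10.4, 10.9 and 11.9 CPM with shSIRT3-2. The 3 groups of HBL1 did not overlap, and the shSIRT3-2 libraries lay between the others. OGDHL fell by 1.41 ± 0.13 with shSIRT3-1 (limma adjusted p = 0.00020), and the estimate with shSIRT3-2 was -0.39 (adjusted p = 0.051). In OCI-Ly1 it was at 2.00 to 4.48 CPM and in Karpas422 at 0.52 to 1.38 CPM over all groups, and it was not tested in Karpas422. The response differed between lines (interaction, adjusted p = 0.010, and 0.042 between OCI-Ly1 and HBL1 alone), and without HBL1 the adjusted p was 0.59.

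SUCLG1, the subunit common to both succinyl-CoA ligases, fell by 0.20 ± 0.07 over the 3 lines with shSIRT3-1 (limma adjusted p = 0.032), a call lost in 16 of 42 alternative fits. In HBL1 alone the decrease with shSIRT3-1 was 0.33 ± 0.09 (adjusted p = 0.015), and it missed the threshold without replicate 1 or 2 of shCTRL (adjusted p = 0.061 and 0.064). DLST, SUCLA2 and SUCLG2 had estimates between -0.10 and 0.04 over the 3 lines and passed with neither hairpin.

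Among the last steps of the cycle, FH hydrates fumarate to malate and MDH1 and MDH2 oxidize malate in the cytosol and in mitochondria. FH (chr1:241660811-241683099, minus strand, hg19) stood in Karpas422 at 42.3, 40.9 and 35.0 CPM with shCTRL, 26.0, 26.8 and 20.02 CPM with shSIRT3-1 and 30.8, 29.6 and 22.6 CPM with shSIRT3-2. In HBL1 the levels were 49.9, 47.1 and 35.9 CPM, then 26.4, 29.6 and 18.5 CPM, then 44.02, 44.9 and 42.2 CPM. FH was thus below the controls with both hairpins in Karpas422 and with shSIRT3-1 alone in HBL1. In OCI-Ly1 the controls spanned 21.4 to 33.7 CPM and both knockdown groups fell inside that range or overlapped it.

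FH fell over the 3 lines by 0.56 ± 0.13 with shSIRT3-1 (limma adjusted p = 0.0012), and the estimate with shSIRT3-2 was -0.14 (95% interval -0.40 to 0.12, adjusted p = 0.41). Within lines it fell by 0.70 ± 0.15 and 0.52 ± 0.15 in Karpas422 (adjusted p = 0.0069 and 0.027) and by 0.85 ± 0.18 in HBL1 with shSIRT3-1 (adjusted p = 0.0071). The Karpas422 call with shSIRT3-2 was lost without replicate 1 or 2 of shCTRL or replicate 3 of shSIRT3-2 (adjusted p = 0.069 to 0.089). The response differed between lines (interaction, adjusted p = 0.038), though this call was lost in 19 of 42 alternative fits. MDH1 and MDH2, at 89.1 to 168 CPM and 55.0 to 205 CPM over all libraries, passed with neither hairpin over the 3 lines. In HBL1 the estimate for MDH2 with shSIRT3-1 was -0.41 (adjusted p = 0.10, and 0.037 with the replicate block).

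**Figure D3:**
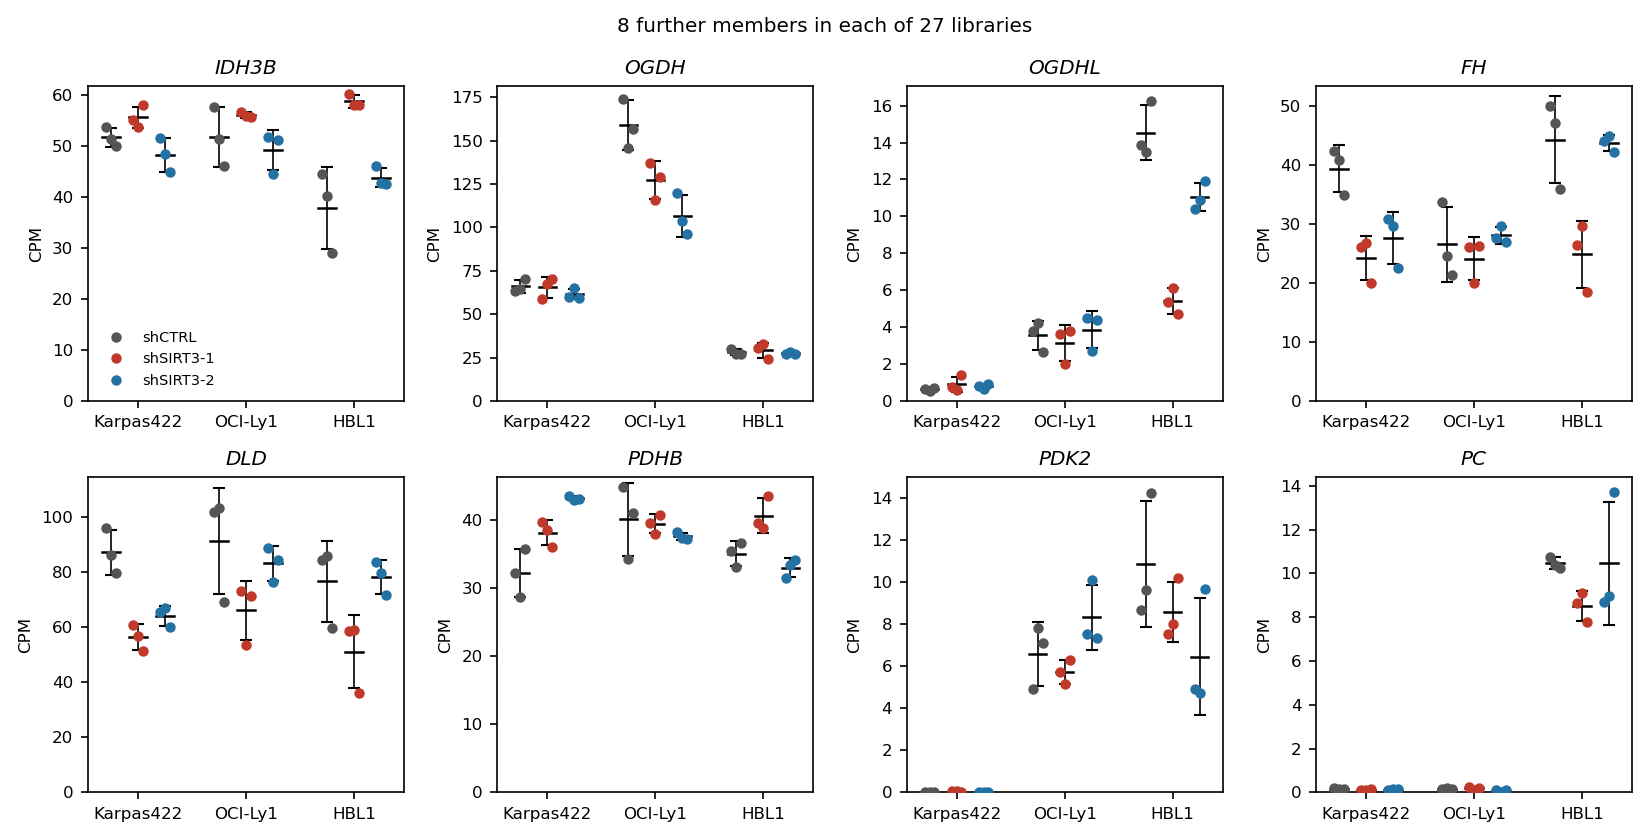
CPM of 8 further genes of the list in each of the 27 libraries (points), with the group mean and SD (n = 3) in black. OGDH is highest in OCI-Ly1 and lowest in HBL1, OGDHL and PC are highest in HBL1, PDK2 is near 0 in Karpas422, and FH and DLD are low with shSIRT3-1 in Karpas422 and HBL1.

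In the pyruvate dehydrogenase complex, PDHA1 and PDHB form the decarboxylating component, DLAT carries the acetyl group, and PDHX binds DLD to the core. PDHA1 fell by 0.29 ± 0.09 over the 3 lines with shSIRT3-1 (limma adjusted p = 0.010), and PDHX fell by 0.31 ± 0.07 with shSIRT3-2 (adjusted p = 0.00097). Without Karpas422 the PDHX value was -0.23 (adjusted p = 0.056). Each differed between hairpins, PDHA1 by 0.35 ± 0.09 (adjusted p = 0.0039) and PDHX by -0.33 ± 0.07 (adjusted p = 0.00071), in opposite directions. DLAT was at 0.02 and 0.05 and passed with neither. Of the PDHA1 transcript 28.5% of bases, and of the DLAT transcript 25.9%, overlap exons of a gene on the other strand.

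PDHX stood in Karpas422 at 24.9, 25.8 and 23.4 CPM with shCTRL, 23.3, 24.1 and 21.5 CPM with shSIRT3-1 and 17.6, 19.7 and 16.1 CPM with shSIRT3-2, and in HBL1 at 26.8, 27.2 and 23.7 CPM, then 29.8, 26.7 and 28.2 CPM, then 21.7, 21.9 and 18.7 CPM. In both lines the shSIRT3-2 libraries were below the controls and the shSIRT3-1 libraries overlapped them. PDHX fell with shSIRT3-2 by 0.47 ± 0.10 in Karpas422 (limma adjusted p = 0.0062) and by 0.32 ± 0.10 in HBL1 (adjusted p = 0.040). The HBL1 call was lost in 12 of 20 alternative fits, among them those without replicate 1 or 2 of shCTRL (adjusted p = 0.12 and 0.14).

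PDHB (chr3:58413357-58419584, minus strand, hg19) stood in Karpas422 at 32.2, 28.7 and 35.7 CPM with shCTRL, 39.7, 38.5 and 36.1 CPM with shSIRT3-1 and 43.5, 42.9 and 43.0 CPM with shSIRT3-2. Both knockdown groups were above the controls. It rose by 0.43 ± 0.09 with shSIRT3-2 (limma adjusted p = 0.0075), and the estimate with shSIRT3-1 was 0.25 (adjusted p = 0.063). In OCI-Ly1 the 9 libraries spanned 34.3 to 44.8 CPM, and in HBL1 31.4 to 43.5 CPM. The response differed between lines (interaction, adjusted p = 0.0067), with adjusted p = 0.27 without Karpas422.

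Of the kinases that switch the complex off, PDK3 fell by 0.51 ± 0.13 over the 3 lines with shSIRT3-1 (limma adjusted p = 0.0041, below the control mean in 9 of 9 libraries). The hairpins differed by 0.50 ± 0.13 for PDK3 (adjusted p = 0.0063). PDK3 also passed in OCI-Ly1 with shSIRT3-1 with the replicate block (-0.51, adjusted p = 0.017, and 0.16 without it). PDK1, the hypoxia-inducible kinase, fell in HBL1 with shSIRT3-2 by 0.60 ± 0.13 (adjusted p = 0.0095), where 17.7, 18.9 and 15.8 CPM with shCTRL stood beside 11.1, 12.6 and 10.8 CPM. PDK4 was listed with at most 0.0346 CPM in any library and at 0 in 23 of 27. Of the phosphatases, PDP1 rose by 0.20 ± 0.08 with shSIRT3-1 (adjusted p = 0.048), a call lost in 24 of 42 alternative fits, and PDP2 passed with neither hairpin. The carrier subunits MPC1 and MPC2 passed with neither hairpin over the 3 lines. In the fits of single lines neither passed, but with the replicate block MPC1 passed in OCI-Ly1 with shSIRT3-1 at 0.53 (adjusted p = 0.037, and 0.086 without it) and MPC2 in HBL1 at -0.29 (adjusted p = 0.043, and 0.11 without it) and in Karpas422 at -0.34 (adjusted p = 0.037, and 0.11 without it).

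PDK2 (chr17:48172101-48189516, plus strand, hg19) was at most 0.0643 CPM in any library of Karpas422, so a response could be measured in OCI-Ly1 and HBL1 only. The interaction over the 3 lines had a limma adjusted p of 0.027, and between OCI-Ly1 and HBL1 alone 0.057. In HBL1 it stood at 8.66, 9.64 and 14.3 CPM with shCTRL, at 7.51, 8.02 and 10.2 CPM with shSIRT3-1 and at 4.94, 4.75 and 9.69 CPM with shSIRT3-2, the last an estimate of -0.79 (adjusted p = 0.067, and 0.0047 with the replicate block). In OCI-Ly1 the levels were 4.89, 7.81 and 7.09 CPM with shCTRL, 5.71, 5.15 and 6.29 CPM with shSIRT3-1 and 7.55, 10.1 and 7.35 CPM with shSIRT3-2, the last an estimate of 0.35 (adjusted p = 0.27). The groups overlapped in both lines, and neither change passed in the fit without a block. Of the PDK2 transcript, 62.8% of bases overlap exons of SAMD14 on the other strand, so the level assigned to PDK2 is uncertain.

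The hairpins were also compared with each other directly. Of 31 genes, 9 differed (background 31.7%): ACO1, IDH2, DLD, FH, PDHA1, PDK3 and ME2 were higher with shSIRT3-2 than with shSIRT3-1, and IDH3B and PDHX were lower. ACO1 had a difference of 0.48 ± 0.10 (limma adjusted p = 0.00054) and FH of 0.42 ± 0.13 (adjusted p = 0.014). The difference for PCK2 was 0.39 with a 95% interval of -0.25 to 1.03 (adjusted p = 0.35). Without HBL1 the differences were 0.27 for DLD and 0.21 for FH (adjusted p = 0.084 and 0.32), and the call for IDH2 was lost in 11 of 42 alternative fits. SIRT3 itself was lower with shSIRT3-1 than with shSIRT3-2, and the part of that in these differences was not tested.

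The same test within each line asks where the changes arose, over the 28 genes tested in Karpas422, the 30 tested in OCI-Ly1 and the 31 tested in HBL1. In Karpas422 with shSIRT3-1, 5 genes fell (DLD, FH, PCK2, PDHA1 and ME2) and 0 rose, where 22.2% and 11.6% of all genes did. At an unadjusted p below 0.05, 2 rose in limma, and edgeR's quasi-likelihood test called 2. With shSIRT3-2, 4 fell (DLD, FH, PCK2 and PDHX) and PDHB rose, where 16.4% and 14.7% of all genes did. In OCI-Ly1 with shSIRT3-1, IDH1 rose and 0 fell, where 3.65% and 3.66% of all genes did (5 fell at an unadjusted p below 0.05 in limma, and edgeR's quasi-likelihood test called 1). With shSIRT3-2, OGDH fell and 0 rose, where 5.6% and 3.81% did, and 0 rose at an unadjusted p below 0.05 or in edgeR. The calls in OCI-Ly1 were few for the whole table as well as for these genes.

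In HBL1 with shSIRT3-1, 8 genes fell (IDH2, OGDHL, DLD, SUCLG1, FH, PCK2, PDK3 and ME2) and 2 rose (IDH3B and IDH3G), where 25.1% and 14.9% of all genes did. With shSIRT3-2, 3 fell (PCK2, PDHX and PDK1) and 0 rose, where 21.3% and 13.5% did (2 rose at an unadjusted p below 0.05 in limma, and edgeR's quasi-likelihood test called 2). The third replicates of HBL1 stood apart for several genes: replicate 3 of shSIRT3-1 was the lowest of its group for PCK2, ME2, FH, DLD and IDH2 and had the lowest share of its reads on listed genes of all libraries, 40.3% against up to 45.6%. Without replicate 3 in every group of HBL1, 19 genes passed with shSIRT3-1 in place of 10 and 14 with shSIRT3-2 in place of 3, where 66.5% and 65.4% of all genes then passed. Without replicate 3 of shSIRT3-1 alone, 10 and 8 passed (46.9% and 53.2% of all genes). Without replicate 1 in every group, 2 and 1 passed (4.36% and 2.88% of all genes), and without replicate 2, 3 and 1 (11.1% and 5.22%). The whole table thus moved with these libraries, and the counts of members moved with it.

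Libraries of OCI-Ly1 with the same replicate number deviated together, as did those of HBL1 and those of the shCTRL and shSIRT3-1 groups of Karpas422, so each line was also fitted with the number as a block. In Karpas422 with shSIRT3-1 the block gave 7 genes in place of 5 (38.7% of all genes), adding MPC2 (-0.34, limma adjusted p = 0.037) and IDH2 (-0.53, adjusted p = 0.048) as lower. With shSIRT3-2, where 1 of 3 pairs did not deviate together, it gave the same 5 genes (36.6% of all genes). In OCI-Ly1 with shSIRT3-1 the block gave 5 genes in place of 1 (13% of all genes), with OGDH, PDHA1 and PDK3 lower and MPC1 higher beside IDH1. With shSIRT3-2 it gave 2 (15.9% of all genes), with PDP2 lower beside OGDH. In HBL1 it gave 13 genes in place of 10 with shSIRT3-1 (49.8% of all genes), adding MPC2, MDH2 and IDH3A as lower. With shSIRT3-2 it gave 5 in place of 3 (44.7% of all genes), adding PDK2 as lower and PDHA1 as higher. PDHA1 stood in HBL1 at 65.2, 62.0 and 45.2 CPM with shCTRL and at 78.1, 76.9 and 74.0 CPM with shSIRT3-2, with no overlap. No call of these 6 comparisons was lost with the block.

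**Figure D4:**
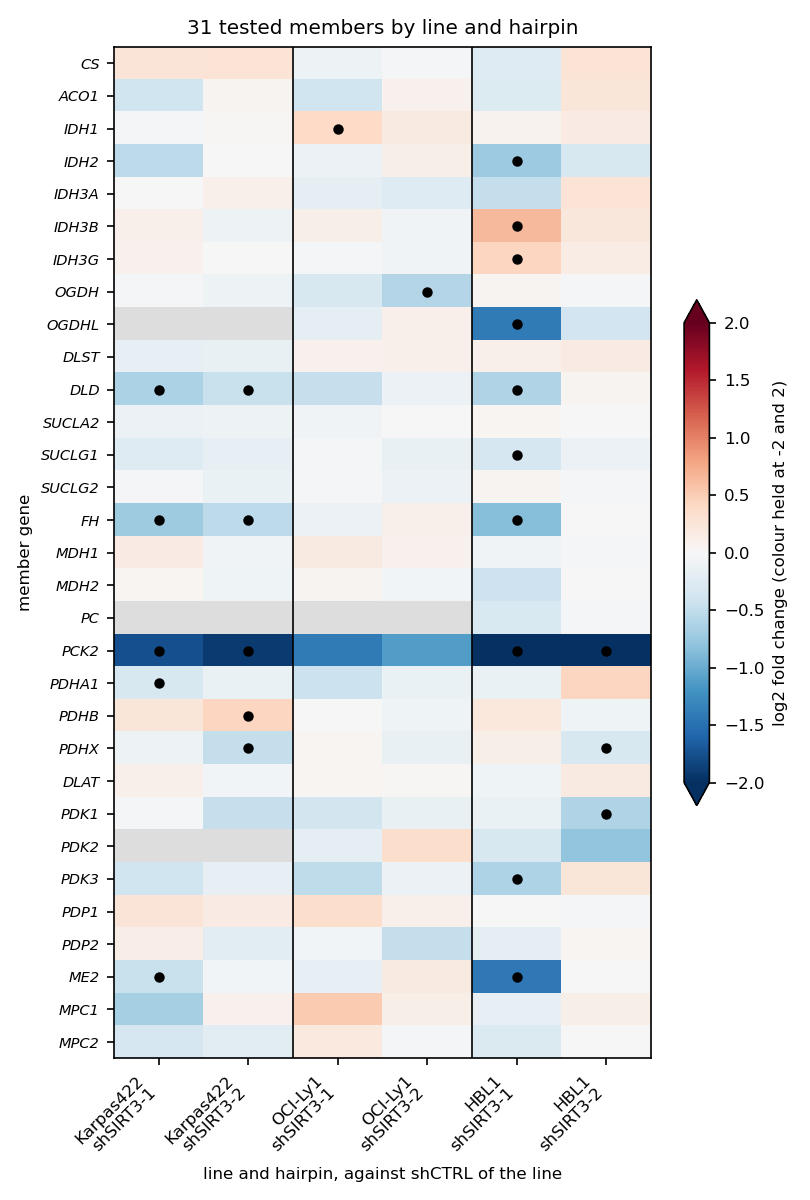
Log2 fold change against the line's own shCTRL for the 31 tested genes (rows) in each line and hairpin (columns), blue for lower and red for higher, with colour held at -2 and 2, grey where a gene was not tested in that line, and a dot where the adjusted p was below 0.05. PCK2 is blue in all 6 columns, with dots in the 4 of Karpas422 and HBL1, and the OCI-Ly1 columns hold 1 dot each.

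Whether the response differed between lines was tested with the line by shRNA interaction. It passed for 7 of 31 genes (IDH3B, OGDH, OGDHL, FH, PDHB, PDK2 and ME2), where 41.8% of all genes passed. OGDHL and PDK2 were too low in Karpas422 for a test there, and of the 28 genes that were tested in each line, 5 passed, where 40.4% of all such genes did. With a replicate block within each line, an alternative chosen after seeing the data, it passed for 13 (58.8% of all genes), adding CS, IDH3A, IDH3G, PDHA1, MPC1 and MPC2. With shSIRT3-1 the estimates of ME2, FH and IDH3B were farthest from 0 in HBL1, while with shSIRT3-2 FH stood at -0.01 in HBL1 and -0.52 in Karpas422. OGDHL and PDK2, not tested in Karpas422, were farther from 0 in HBL1 than in OCI-Ly1 with both hairpins. With shSIRT3-1, 5 of the 7 genes were thus farthest from 0 in HBL1 among the lines where each was tested. In Karpas422 the mean of PDK2 was 0.00313 CPM with shCTRL and 0.0429 CPM with shSIRT3-1, and these near-zero values also enter its interaction over the 3 lines. PDHB was farthest from 0 in Karpas422 with both hairpins, and OGDH in OCI-Ly1. Calls by this test were often near the threshold: that of IDH3B was lost in 23 of 42 alternative fits, that of FH in 19, that of OGDH in 17 and that of PDK2 in 8. The count was 4 without Karpas422 (24.4% of all genes), 4 without OCI-Ly1 (29.8%) and 4 without replicate 1 of Karpas422 shCTRL (37%). It was 3 without replicate 1 and 4 without replicate 2 of HBL1 shSIRT3-2 (32.2% and 33.9% of all genes). With Karpas422 and OCI-Ly1 alone limma called 0 of 30 genes, where 9.74% of all genes passed, and 7 of the 30 had an unadjusted p below 0.05.

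The last comparison asks how the lines differed without a SIRT3 hairpin. In the shCTRL libraries 16 of 31 genes differed between HBL1 and Karpas422 (background 67.8%), 19 between HBL1 and OCI-Ly1 (67.3%) and 15 between Karpas422 and OCI-Ly1 (63.6%), which includes PC, OGDHL and PDK2 in pairs where they passed the filter on low values only through the line with the higher level. Over the genes tested within both lines of a pair, a count chosen after seeing the data, 13 of 28 differed (63.3% of all such genes), 18 of 30 (63.2%) and 13 of 28 (60.9%). No reading about these genes as a group is made from these shares. PC, which carboxylates pyruvate to oxaloacetate (chr11:66615888-66725857, minus strand, hg19), stood at 10.8, 10.4 and 10.3 CPM in HBL1, at 0.197, 0.142 and 0.176 CPM in Karpas422 and at 0.155, 0.182 and 0.139 CPM in OCI-Ly1. Over the 3 shCTRL libraries of a line PC had 2659 reads in HBL1, 54 in Karpas422 and 50 in OCI-Ly1. Corrected for library totals, HBL1 was 60.8-fold above Karpas422 (95% exact interval 46.5 to 81.2, counting error only) and 65.6-fold above OCI-Ly1 (49.6 to 88.6). PC passed the filter on low values through HBL1 alone, so no test of these differences is given. In HBL1 it passed with neither hairpin (-0.30 and -0.03, adjusted p = 0.20 and 0.90), and its 9 libraries there spanned 7.77 to 13.7 CPM.

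PDK2 was all but missing from Karpas422, with 1 read in the 3 shCTRL libraries together, against 2769 reads in HBL1 and 2087 in OCI-Ly1. Corrected for library totals, the ratio of HBL1 to Karpas422 was 3420 (95% exact interval 613 to 135000, counting error only). PDK2 was picked for its difference between lines, so the interval describes the reads and is no test. Of its transcript, 62.8% of bases overlap exons of SAMD14 on the other strand, so reads of the pair cannot be told apart there. OGDHL was higher at each step from Karpas422 (0.666, 0.516 and 0.724 CPM) to OCI-Ly1 (3.81, 4.20 and 2.65 CPM) to HBL1 (13.8, 13.5 and 16.3 CPM), and the groups did not overlap. The step from OCI-Ly1 to HBL1 was 2.02 ± 0.21 on the log2 scale (limma adjusted p = 8.3e-06), and no test is given against Karpas422, where it was below 1 CPM in the shCTRL libraries. OGDH ran in another order, HBL1 lowest at 26.97 to 30.0 CPM, then Karpas422 at 63.5 to 70.5 CPM and OCI-Ly1 at 146 to 174 CPM, with steps of 1.24 ± 0.10 and 1.26 ± 0.10 (adjusted p = 1.5e-06 and 1.7e-06).

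PCK2 was higher in Karpas422 and HBL1 than in OCI-Ly1 by 2.82 ± 0.64 and 2.26 ± 0.64 (limma adjusted p = 0.0030 and 0.0098), and by 3.83 and 3.27 without replicate 2 of the OCI-Ly1 controls. The call between HBL1 and OCI-Ly1 was lost in 3 of 20 alternative fits. Between HBL1 and Karpas422 the estimate was -0.56 ± 0.64 and did not pass with all libraries (adjusted p = 0.46). That SE was shared by the shCTRL libraries of all lines, among them the OCI-Ly1 controls, which were far apart. The p-value thus does not measure the spread within Karpas422 and HBL1 alone, whose shCTRL libraries did not overlap for PCK2. Without replicate 2 of the OCI-Ly1 controls the same estimate passed (adjusted p = 0.0041). CS was highest in OCI-Ly1, by 1.22 ± 0.12 over Karpas422 and 0.89 ± 0.12 over HBL1 (adjusted p = 7.0e-06 and 6.8e-05). MPC1, of the pyruvate carrier, was lowest in OCI-Ly1, at 5.36 to 8.04 CPM beside means of 21.4 CPM in Karpas422 and 19.2 CPM in HBL1.

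Per kilobase of transcript, MDH1 had the highest level in the shCTRL libraries, at a mean of 91.6 CPM per kb. PCK2 followed at 79.0 and MDH2 at 58.7. PC had the lowest mean of the tested genes, at 0.84, with 2659 reads in HBL1, 54 in Karpas422 and 50 in OCI-Ly1. In Karpas422 PDK2, with 1 read, was below PC. The order did not hold within lines: PCK2 was above MDH1 in Karpas422 (124 against 106 CPM per kb), close to it in HBL1 (83.9 against 81.9) and far below it in OCI-Ly1 (29.3 against 86.9, with the high replicate 2 included). ME2, with a long transcript, was at 7.63 CPM per kb.

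**Figure D5:**
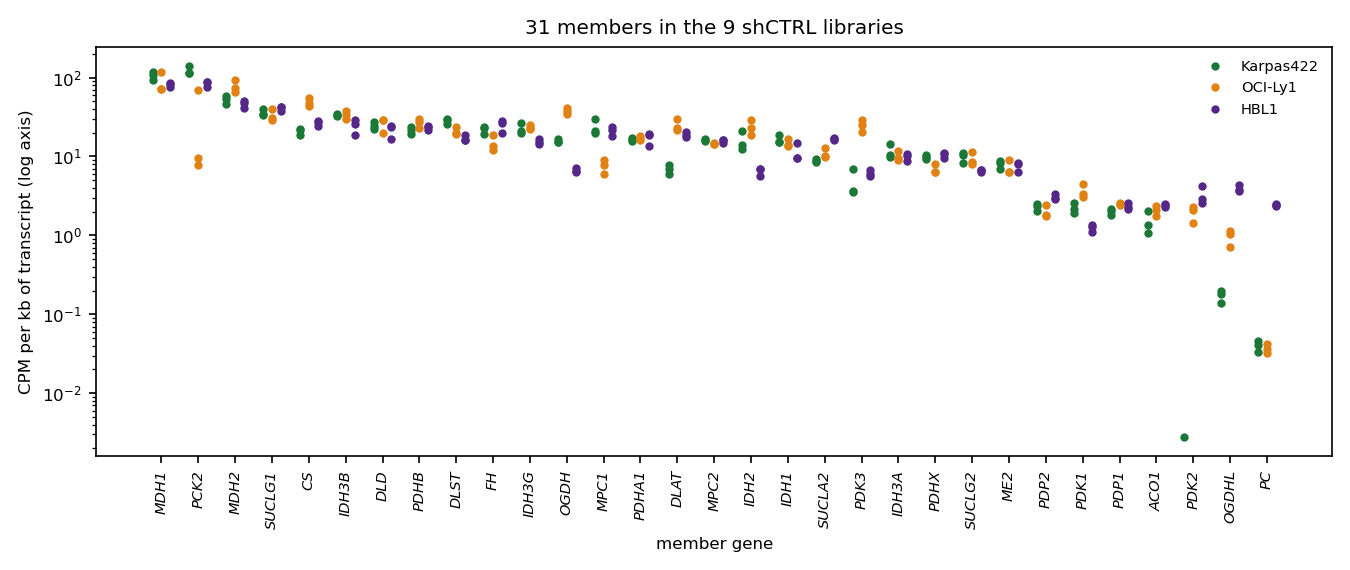
Level of 31 genes of the list in the 9 shCTRL libraries, as CPM per kb of transcript on a log axis, in order of the mean, with 3 points per line (a library listed at 0 has no point). PC, OGDHL and PDK2 span 1 or more powers of 10 over the 3 lines, and PCK2 in OCI-Ly1 is split between replicate 2 and the others.

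The genes that feed or drain the cycle but are not on the list were described with 46 neighbours, of which 45 were tested. With shSIRT3-1, 12 fell and 3 rose, and with shSIRT3-2, 13 fell and 5 rose. As shares of the neighbours tested these were 26.7% and 6.67%, then 28.9% and 11.1%, beside 22.3% and 15.6%, then 21.7% and 16.3%, of all genes. Their median change was -0.12 and -0.08. The transaminases GPT2 and GOT1, which exchange amino groups with 2-oxoglutarate, fell most: GPT2 by 1.59 ± 0.27 and 1.96 ± 0.27 (limma adjusted p = 7.1e-05 and 7.2e-06) and GOT1 by 1.09 ± 0.15 and 1.30 ± 0.15 (adjusted p = 5.4e-06 and 7.8e-07). In Karpas422, GOT1 stood at 113, 150 and 103 CPM with shCTRL and between 29.7 and 51.8 CPM in the 6 knockdown libraries. In OCI-Ly1, where shCTRL replicate 2 was high for both, the estimates for GPT2 were -0.70 and -0.62 (adjusted p = 0.26 and 0.30) and those for GOT1 were -0.45 and -0.74 (adjusted p = 0.28 and 0.097). The response differed between lines for GPT2 and GOT1 (interaction, adjusted p = 0.0079 and 0.017).

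GLUD1, mitochondrial glutamate dehydrogenase, fell by 0.66 ± 0.09 and 0.31 ± 0.09 (limma adjusted p = 6.7e-06 and 0.011), and its near-identical copy GLUD2, with which it may share reads, fell by 0.66 and 0.28 (adjusted p = 1.2e-05 and 0.030). LIAS, which makes the lipoyl group that DLAT and DLST carry, fell by 0.51 ± 0.11 and 0.82 ± 0.11 (adjusted p = 0.00059 and 3.2e-06). SDHAF4, an assembly factor of succinate dehydrogenase, fell by 0.60 ± 0.14 and 0.66 ± 0.14 (adjusted p = 0.0014 and 0.00057). SLC25A10, the mitochondrial dicarboxylate carrier, rose with shSIRT3-2 by 0.63 ± 0.23 (adjusted p = 0.034) and stood at -0.14 with shSIRT3-1 (adjusted p = 0.67).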

How the data were processed

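The authors deposited 1 table per library with a value per gene, aligned by STAR to hg19 (per the labels) and counted over RefSeq genes from an unstranded kit. The values are named FPKM but are CPM: in each of 27 libraries 100% were whole multiples of 1 step, within 0.01 of a whole read and independent of gene length, so reads were recovered. The deposited CPM sum to 40.3% to 45.6% of the total they were divided by. Here limma 3.58.1 (R 4.3.3, trended variance) was fitted to log2(CPM + 0.1) of genes at 1 CPM or more in at least 3 libraries, with line and shRNA as terms or within a line, with Benjamini-Hochberg adjustment over all genes tested. edgeR 4.0.16 on the recovered reads, other pseudocounts, filters and scalings, the replicate block, and fits without a replicate, library or line were alternatives. On simulated reads for shSIRT3-1 over 3 lines, 97% of genes changed by 1.5-fold and 100% of those changed by 2-fold were recovered. The tests within Karpas422 recovered 60% and 99%, those within OCI-Ly1 46% and 98%, and those within HBL1 50% and 100%. The simulation gave every gene the same dispersion, with no outlying library and no deviation shared by replicate number. It changed only genes above a minimum level in every line. These shares are thus not the power of the tests on the real libraries.

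The members and lists were chosen with earlier results of these data known. Genes described library by library passed both thresholds (adjusted p below 0.05 and 1.5-fold), passed the interaction with opposite signs between lines, or differed most between lines in shCTRL, and others were named after their values were seen. Promoter windows are the 250 bases before RefSeq starts (GRCh38.p14). Intervals on reads cover counting error only. No libraries were duplicates. Deviations from group means of libraries with the same replicate number correlated at over 0.1 in 9 of 9 pairs in OCI-Ly1 (mean 0.271) and 9 of 9 in HBL1 (0.398), and in 8 of 9 in Karpas422 (0.291), where 3 of 3 pairs of shCTRL and shSIRT3-1 but 2 of 3 of shCTRL and shSIRT3-2 did. Of the pairs within a line with different numbers, 1 of 18 was over 0.1 in OCI-Ly1, 6 of 18 in HBL1 and 5 of 18 in Karpas422. The labels do not say what a number marks, so the pairing comes from the data. One marker gene is not reported here.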

Additional observations from a re-analysis of the deposited data

Results flagged for a closer look

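A difference between lines in the response to the hairpins was called for 7 genes in the fit over 3 lines, by the limma line by shRNA interaction adjusted over all genes tested. The adjusted p was 0.0067 for PDHB, 0.010 for OGDHL, 0.014 for ME2, 0.027 for PDK2, 0.038 for OGDH, 0.038 for FH and 0.041 for IDH3B. PDK2 and OGDHL were too low for a test within Karpas422. Between OCI-Ly1 and HBL1 alone the adjusted p was 0.057 for PDK2, which did not pass, and 0.042 for OGDHL. The other 5 genes were tested in each line.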

How the results depend on the processing

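Of 78 tested values of single genes, recomputed in 2296 alternatives, 2033 kept direction and test, 263 kept direction but lost the test and 0 reversed. PCK2 and SIRT3 over the 3 lines passed in all 42 alternatives with either hairpin, as did ME2, FH and DLD with shSIRT3-1. Of 352 alternative counts of genes, 297 stayed within 1.5 times. Where they did not, the cause was not tested. The number of genes whose response differed between lines, 7, became 11 with edgeR's likelihood ratio test. It became 4 without Karpas422 (24.4% of all genes), 4 without OCI-Ly1 (29.8%) and 0 without HBL1 (9.74%). In OCI-Ly1 the count of 1 with shSIRT3-1 became 0 with no filter, 2 with quantile normalization, 2 with edgeR's quasi-likelihood test and 4 with its likelihood ratio test, and the count of 1 with shSIRT3-2 became 3 with the likelihood ratio test. In HBL1 with shSIRT3-2 the count of 3 became 6 with median-ratio scaling. Shares of all genes are not given here for the other tests, filters and scalings. No reading about the genes of the list is made from those counts.

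With 1 replicate number or 1 library left out, the counts ranged from 7 to 11 for shSIRT3-1 over the 3 lines, 2 to 4 for shSIRT3-2, 4 to 10 between hairpins and 0 to 10 for the interaction. They ranged from 2 to 8 and 1 to 7 in Karpas422 for shSIRT3-1 and shSIRT3-2, 0 to 3 and 0 to 2 in OCI-Ly1, and 2 to 19 and 1 to 14 in HBL1. Between shCTRL groups they ranged from 10 to 17 for HBL1 against Karpas422, 13 to 20 for HBL1 against OCI-Ly1 and 10 to 17 for Karpas422 against OCI-Ly1. These ranges are given without shares of all genes, so no reading about the genes of the list is made from them.

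Across lines, libraries with the same number deviated together little (mean correlation 0.0503), and in Karpas422 1 of 9 pairs was at 0.0144. A replicate block within each line, chosen after seeing the data, gave 11 and 4 genes over the 3 lines, 9 between hairpins and 13 for the interaction. It added PDK1 with shSIRT3-2 (-0.40, adjusted p = 0.022) and the 6 interaction calls given in the text, and changed no other call. With 1 replicate block for the number over all lines, counts were 11 and 3 over the 3 lines, 9 between hairpins, 10 for the interaction, 7 and 5 for the hairpins within Karpas422, 5 and 2 within OCI-Ly1, and 13 and 5 within HBL1. Between shCTRL groups, which lie in different lines, they were 18, 20 and 18 in place of 16, 19 and 15. Outside the single lines, shares of all genes are given only for the interaction with the block within each line. No reading about the genes of the list is made from the other blocked counts. No call was lost. Quantile normalization moved the whole table's split from 2490 lower and 1299 higher to 1810 and 1844 in Karpas422 with shSIRT3-1, from 2977 and 1768 to 2253 and 2702 in HBL1 with shSIRT3-1, and from 2525 and 1596 to 1915 and 2168 in HBL1 with shSIRT3-2.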
